A study of Mus musculus with 6 samples.

Results

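The 10 transcription factors Nr4a1, Nr4a2, Nr4a3, Egr1, Egr2, Egr3, Nfatc1, Nfatc2, Tox and Tox2 were followed in cDNT, double negative T cells (named for lacking CD4 and CD8) of C57BL/6 mice that were converted ex vivo from CD4+CD25- cells. The conversion used mature dendritic cells as partners in culture together with IL-2, and the product was sorted. They were chosen by name, as factors that T cell receptor signalling induces or that accompany exhaustion, among the 29393 genes of the deposited table. The labels describe adult mice and spleen. The W/ IL-10 group was exposed to this cytokine at 50 ng/ml over 24 h and the W/O IL-10 group was not, with 3 libraries in each. The paper's methods add anti-CD3/CD28 antibodies during these 24 h, which the labels do not mention, and do not say whether the control cells received them too. Neither source says that the 3 libraries of a group came from separate mice or cultures, so the p-values measure only the spread between these libraries, which may be technical.

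A T cell receptor that binds its ligand raises intracellular calcium, calcineurin then dephosphorylates NFAT proteins, and these enter the nucleus. The immediate early genes of the EGR and NR4A families are transcribed within the first hours of such a signal, so their mRNA is widely read as a sign of recent receptor signalling. NFAT that acts without enough AP-1 partner is known to drive a programme of unresponsiveness in which Egr2, Egr3, the NR4A factors and Tox take part, and Tox in particular maintains exhausted T cells.

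The stretches of DNA just before the start sites of the 3 NR4A genes are shown because these genes are textbook targets of CREB, because EGR factors are among the members, and because the family held the member with the smallest p-value. Capitals mark the CRE half-site TGACG and the EGR site GCGNGGGCG on either strand, and each sequence reads 5′ to 3′ on the strand of its gene. They come from RefSeq (GRCm38.p6), cover the 250 bases before the start at most, and stop where an annotated exon begins. The Nr4a1 stretch is chr15:101266596-101266845 on the plus strand. It lies inside the annotated span of that gene (chr15:101254269-101274795), so it precedes a start within the span and not its first base. The Nr4a2 stretch is chr2:57124004-57124253 on the minus strand. The Nr4a3 stretch is chr4:48045055-48045152 on the plus strand, 98 bases long.
Nr4a1: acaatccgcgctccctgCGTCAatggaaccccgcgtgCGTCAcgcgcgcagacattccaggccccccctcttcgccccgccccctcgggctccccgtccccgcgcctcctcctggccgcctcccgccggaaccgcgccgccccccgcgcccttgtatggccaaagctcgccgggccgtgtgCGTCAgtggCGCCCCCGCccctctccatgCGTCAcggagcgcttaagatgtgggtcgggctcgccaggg
Nr4a2: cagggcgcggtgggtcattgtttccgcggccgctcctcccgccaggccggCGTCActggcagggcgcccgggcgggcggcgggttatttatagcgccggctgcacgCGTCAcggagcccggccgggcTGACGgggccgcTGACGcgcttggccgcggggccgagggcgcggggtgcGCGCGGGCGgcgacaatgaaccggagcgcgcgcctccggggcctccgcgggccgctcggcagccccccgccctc
Nr4a3: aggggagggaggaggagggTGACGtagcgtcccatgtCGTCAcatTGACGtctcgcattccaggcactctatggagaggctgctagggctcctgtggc

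Both the Nr4a1 and the Nr4a2 stretch held 4 CRE half-sites and 1 EGR site. The Nr4a3 stretch held 3 half-sites, its whole window of 250 bases held 4, and neither held an EGR site. Of all 32851 promoter windows of this length, 17.8% held at least 1 half-site and 0.137% held at least 4, while 4.70% held at least 1 EGR site. These shares were not matched for GC content, which was 74.4, 80 and 63.6% in the windows of Nr4a1, Nr4a2 and Nr4a3. How rare the motifs are among windows of such content was not tested. The windows of Egr2, Nfatc2 and Tox2 held neither motif. Other motifs were searched as well but are not marked. The NFAT core GGAAA occurred 0, 1 and 0 times in the windows of Nr4a1, Nr4a2 and Nr4a3. It occurred 3 times in that of Nfatc2 and not in those of Egr2 and Tox2, while 55.6% of all windows held at least 1. The NR4A site AAAGGTCA and the AP-1 site TGACTCA occurred in none of these windows. Motifs were picked after the sequences had been read, and a match describes letters only.

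Markers of cell types served as a check of the cells. The summed level of 10 T cell markers was 1778 to 2196 CPM (counts relative to the TMM-scaled library total) W/O IL-10 and 2307 to 2423 CPM W/ IL-10. Cd4 was at 0.350 to 1.55 CPM. Cd8a, at 95.7 to 168 CPM, and Cd8b1, at 32.5 to 66.6 CPM, were clearly detected, which goes against the double negative label at the level of mRNA, and both were higher W/ IL-10 in every library (quasi-likelihood test in edgeR, p adjusted by Benjamini-Hochberg, adjusted p = 0.0369 and 0.0306). Total counts lay between 21619420 and 23967088 per library, and 3 counts, taken as the floor of detection, equalled 0.122 to 0.146 CPM.

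Several genes of a list with a known response to IL-10 changed between the groups. Socs3, the feedback inhibitor of STAT3 signalling, was at 11.2, 9.54 and 11.0 CPM W/O IL-10 and at 29.2, 40.9 and 42.1 CPM W/ IL-10, a fold change of 3.54 (adjusted p = 0.00102 in edgeR). Of the 6 genes in this list, 3 rose at the adjusted p, Socs3, Bcl3 and Pim1, beside 1.21% of all tested genes. Pim1 did not pass when any 1 library other than W/O IL-10 replicate 1 was left out. Il10ra, the receptor chain that binds IL-10, fell by 0.95 on the log2 scale, beside 0.979% of all tested genes that fell. Stat3 (log2 fold change 0.38) and Il4ra (-0.21) did not pass, and all IL-10 libraries were lower for Il4ra.

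All 10 members were tested, and 0 of them reached the criteria of a fold change of at least 1.5 together with an adjusted p under 0.05 in edgeR's quasi-likelihood test, beside 1.45% of the 14916 tested genes. At an unadjusted p under 0.05 the edgeR count was 3, Nr4a1, Nr4a3 and Egr1, beside 14.7% of tested genes. At the adjusted p alone, 1 of 10 passed, Nr4a1, which fell, beside 2.19% of tested genes in either direction, 0.979% that fell and 1.21% that rose. DESeq2 and limma-voom gave the same counts, 0 for both criteria and 1 for the adjusted p. The groups did not overlap for 3 of 10 members, Nr4a1 and Egr2 lower and Egr1 higher W/ IL-10, beside 22.6% of all tested genes. The median log2 fold change (W/ minus W/O IL-10) was -0.05 over the members and 0.01 over all tested genes.

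**Figure D1:**
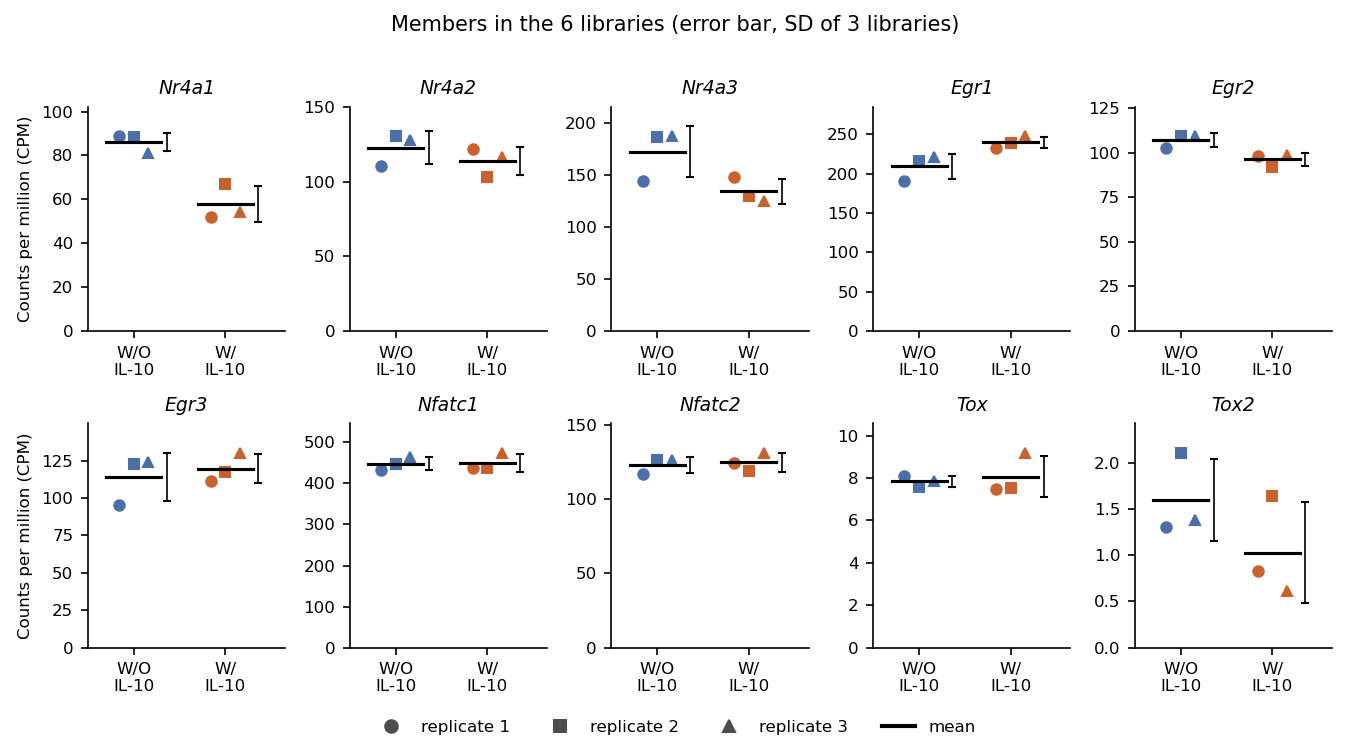
CPM (y axis, from 0) of each member in the 3 W/O IL-10 libraries (blue) and the 3 W/ IL-10 libraries (orange); the marker shape gives the replicate number, the black line the mean and the error bar the SD. Nr4a1 lay at 81.3 to 88.8 CPM W/O IL-10 and at 52.2 to 67.2 CPM W/ IL-10, while the values of Nfatc1, Nfatc2, Egr3 and Tox were interleaved.

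The NR4A proteins are orphan nuclear receptors that need no ligand and are controlled largely through their amount. Nr4a1 (Nur77; ENSMUSG00000023034, chr15:101254269-101274795 on the plus strand), the member most used as a reporter of receptor signalling, was at 88.8, 88.3 and 81.3 CPM in W/O IL-10 replicates 1, 2 and 3. It was at 52.2, 67.2 and 54.3 CPM in W/ IL-10 replicates 1, 2 and 3. All 3 IL-10 libraries lay below all 3 controls, with replicate 2 the nearest to them. The mean went from 86.1 ± 4.21 CPM to 57.9 ± 8.14 CPM (SD, n = 3). This was 1.49-fold lower, a log2 fold change of -0.57 ± 0.10 (SE) with a 95% interval from -0.81 to -0.34 (adjusted p = 0.0306 in the same edgeR test). The fold change thus sat just inside 1.5, and the fall passed the adjusted p but not both criteria. With 1 library left out at a time the adjusted p ranged from 0.0117 to 0.184, and it stayed under 0.05 only without W/O IL-10 replicate 1 (0.0117) or W/ IL-10 replicate 2 (0.0215). Without W/O IL-10 replicate 2 or 3, or without W/ IL-10 replicate 1 or 3, it was 0.109, 0.0509, 0.130 and 0.184.

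Nr4a3 (Nor1; ENSMUSG00000028341, chr4:48045153-48086447 on the plus strand), which acts redundantly with Nr4a1 in T cells, was at 144, 186 and 187 CPM in the controls and at 148, 130 and 125 CPM W/ IL-10. The groups overlapped through W/O IL-10 replicate 1, which lay under W/ IL-10 replicate 1. The log2 fold change was -0.36 ± 0.12, with a 95% interval from -0.62 to -0.10 and an adjusted p of 0.180 in edgeR. Without W/O IL-10 replicate 1 it was -0.48 with an adjusted p of 0.00769. Over all tested genes, leaving out that library raised the number passing the adjusted p from 327 to 525. With all 6 libraries Nr4a3 also passed in edgeR when no filter on low counts was applied (adjusted p = 0.00745). Nr4a2 (Nurr1; ENSMUSG00000026826, chr2:57106830-57124003 on the minus strand), known above all for its role in dopaminergic neurons and also induced in T cells, was at 111, 131 and 128 CPM W/O IL-10 and at 122, 104 and 116 CPM W/ IL-10. Its groups were interleaved, and the interval of its log2 fold change, -0.32 to 0.10, did not reach a change of 1.5-fold in either direction (adjusted p = 0.631).

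The EGR proteins are zinc finger factors, of which Egr1 is the broadest early response gene and Egr2 and Egr3 restrain T cell activation. Egr1 (ENSMUSG00000038418, chromosome 18) was at 191, 217 and 221 CPM W/O IL-10 and at 233, 239 and 248 CPM W/ IL-10. All IL-10 libraries were above all controls, but the gap between the groups was smaller than the range within the controls. The log2 fold change of 0.20 ± 0.08 did not pass (95% interval 0.01 to 0.38, adjusted p = 0.299 in edgeR). Egr2 (ENSMUSG00000037868, chr10:67535475-67542188 on the plus strand) had values of 102, 109 and 109 CPM in the controls and of 98.0, 91.8 and 98.7 CPM W/ IL-10. Here the order was the opposite, with all IL-10 libraries below the controls, and the log2 fold change of -0.15 ± 0.07 did not pass either (95% interval -0.31 to 0.00380, adjusted p = 0.353). Egr3 (ENSMUSG00000033730, chr14:70077203-70082614 on the plus strand) was at 95.6, 123 and 124 CPM in the controls and at 111, 117 and 130 CPM W/ IL-10. Its groups overlapped, with W/O IL-10 replicate 1 apart from the other controls (log2 fold change 0.07, 95% interval -0.19 to 0.32, adjusted p = 0.827).

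Which members stood without overlap depended on the scaling. With CPM not scaled by the TMM factors, edgeR's correction of library size, they were Nr4a1, Nr4a3 and Egr2. With DESeq2's size factors they were Nr4a1, Egr1 and Egr2. Once GC content and length had been corrected for, they were Nr4a1 and Egr1. Nr4a1 alone was among them under every one of these scalings.

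Nfatc1 and Nfatc2 are among the genes of calcium-regulated NFAT proteins in T cells, and the short form of Nfatc1 is itself an induced NFAT target. Nfatc1 (ENSMUSG00000033016, chromosome 18) was at 432, 448 and 464 CPM W/O IL-10 and at 437, 438 and 475 CPM W/ IL-10, so the groups covered almost the same range. Its log2 fold change was 0.01 with a 95% interval from -0.17 to 0.18 (adjusted p = 0.985). Nfatc2 (ENSMUSG00000027544, chr2:168476410-168601657 on the minus strand) was at 117, 126 and 126 CPM W/O IL-10 and at 125, 119 and 131 CPM W/ IL-10. Its groups were interleaved as well (log2 fold change 0.02, interval -0.15 to 0.19, adjusted p = 0.930). The counts behind these values, 8997 to 10854 for Nfatc1 and 2567 to 3058 for Nfatc2, made both intervals narrow, and neither reached a change of 1.5-fold. The table gives 1 count per gene, so the forms of Nfatc1 were not separated.

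Tox and Tox2 encode HMG-box proteins. Tox (ENSMUSG00000041272, chr4:6686353-6991557 on the minus strand) was at 8.08, 7.56 and 7.87 CPM in the controls and at 7.47, 7.54 and 9.19 CPM W/ IL-10. W/ IL-10 replicate 3 was the highest and W/ IL-10 replicate 1 the lowest of all 6 libraries (log2 fold change 0.04, interval -0.28 to 0.36, adjusted p = 0.922). An antisense gene, Gm11802, covers 3.42% of the exon bases of Tox, and whether reads were counted by strand is not stated. Tox2 (ENSMUSG00000074607, chr2:163203125-163324170 on the plus strand) was at 1.31, 2.11 and 1.38 CPM W/O IL-10 and at 0.825, 1.64 and 0.613 CPM W/ IL-10, which rests on 14 to 51 counts. Replicate 2 was the highest library in each group, and the groups overlapped. Its log2 fold change of -0.64 had an interval from -1.57 to 0.30, which holds both no difference and differences well beyond 1.5-fold, so none was detectable at this depth (adjusted p = 0.529).

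**Figure D2:**
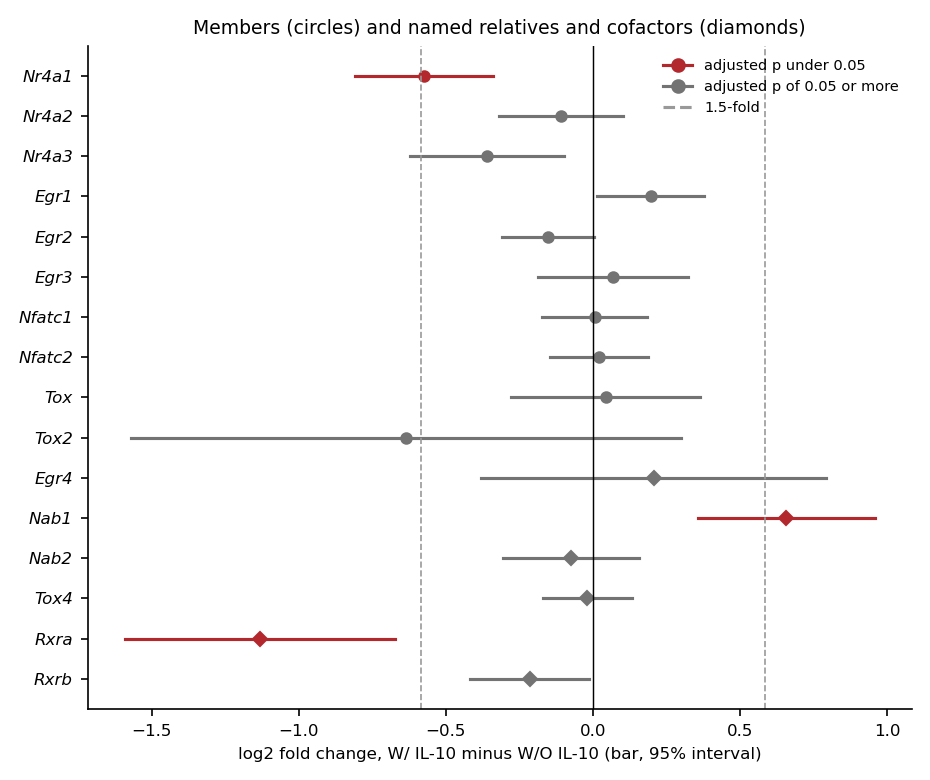
Log2 fold change, W/ minus W/O IL-10 (x axis), of the 10 members (circles) and of the named relatives and cofactors (diamonds), with the 95% interval of the edgeR fit. Red marks an adjusted p under 0.05 and the dashed lines a change of 1.5-fold: Nr4a1 sat just inside the line at -0.57, and Rxra at -1.13 and Nab1 at 0.66 lay beyond it.

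Levels of different genes were compared as CPM per kilobase of annotated exon. On that scale Nfatc1 was the highest member (57.9 to 62.2 W/O IL-10) and Egr1 followed (42.7 to 49.2), with no overlap between them in either group. Egr2 (30.1 to 32.1), Nr4a2 (27.2 to 32.2), Nr4a3 (24.1 to 31.2) and Egr3 (21.7 to 28.1) came next W/O IL-10, each overlapping its neighbour. Nr4a1 (23.2 to 25.3) overlapped Egr3 and Nr4a3 W/O IL-10. W/ IL-10, at 14.9 to 19.1, it lay under Nr4a3 (20.9 to 24.7) and Egr3 (25.3 to 29.6). Nfatc2 (11.0 to 11.9 W/O IL-10), Tox (0.994 to 1.06) and Tox2 (0.384 to 0.620) closed the order with no overlap between neighbours. The order of neighbours depends on which exons are taken as expressed, since by coding length Egr3 ranked directly after Nfatc1 and Egr1 over all 6 libraries. By coding length Nfatc2 also lay above Nr4a1 W/ IL-10 (42.6 to 47.2 and 28.9 to 37.3). W/O IL-10 these genes then overlapped (42.0 to 45.4 and 45.1 to 49.2).

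The make-up of each family was also computed per length, as the share of each member in the family's sum. These sums hold the members only. They leave out Nfatc3, Tox4 and Egr4, whose means W/O IL-10 on the same scale were 31.0, 20.9 and 0.653. The NR4A sum was 76.6, 88.3 and 85.8 W/O IL-10 and 69.6, 66.3 and 65.0 W/ IL-10, all IL-10 libraries lower, and it did not overlap under the 3 other scalings either. Within it the share of Nr4a2 was 35.6, 36.4 and 36.6% W/O IL-10 and 43.1, 38.5 and 44.1% W/ IL-10. The share of Nr4a2 was thus higher in every IL-10 library, 5.70 percentage points on average, and the two-sided exact permutation test gave p = 0.1, the smallest that 3 against 3 libraries allow. The level of Nr4a2 itself was not higher (log2 fold change -0.11). Its share rose because Nr4a1 (-0.57) and Nr4a3 (-0.36) in the same sum were lower. The share of Nr4a1 overlapped, at 29.5 ± 3.15% and 24.7 ± 3.83% (SD, n = 3, exact p = 0.3), and so did that of Nr4a3, at 34.3 ± 2.58% and 33.4 ± 1.82% (n = 3, exact p = 0.8).

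In the EGR family the sums overlapped, at 94.5 to 109 W/O IL-10 and 106 to 114 W/ IL-10, but the make-up did not. The share of Egr1 was 45.1, 44.6 and 45.0% W/O IL-10 and 49.0, 49.8 and 48.5% W/ IL-10. That of Egr2 was 31.9, 29.7 and 29.3% W/O IL-10 and 27.2, 25.3 and 25.5% W/ IL-10. The mean share of Egr1 was 4.21 percentage points higher and that of Egr2 differed by -4.30 points, both without overlap of the groups and with the smallest possible two-sided exact permutation p of 0.1 each. The share of Egr3 overlapped (difference 0.0888 points, exact p = 0.8). Nfatc1 made up 83.8 ± 0.314% and 83.6 ± 0.361% of the sum of Nfatc1 and Nfatc2 (n = 3, exact p = 0.6), and the groups overlapped. Tox made up 73.4, 61.6 and 71.9% of the sum of Tox and Tox2 W/O IL-10 and 80.2, 67.3 and 87.0% W/ IL-10 (n = 3, exact p = 0.3). The 10 shares form 1 family of tests in which no adjusted value could pass.

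**Figure D3:**
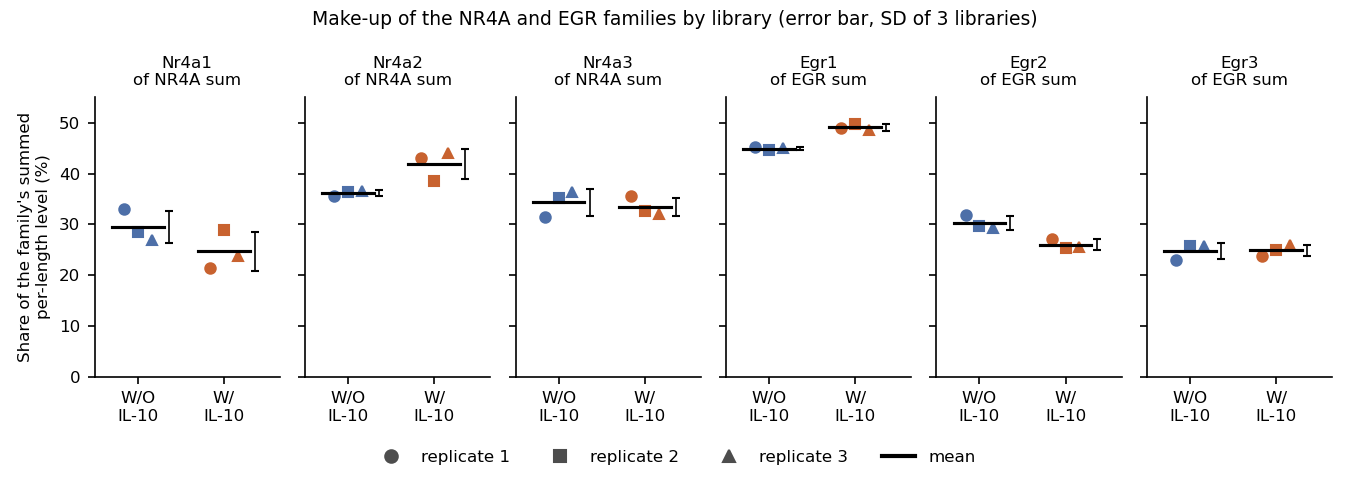
Share of each NR4A and EGR member in its family's summed per-length level, in percent (y axis, from 0), for each library; blue marks W/O IL-10, orange W/ IL-10, the marker shape the replicate number, the black line the mean and the error bar the SD. The mean share of Egr1 was 44.9% W/O and 49.1% W/ IL-10 and that of Egr2 30.3% and 26.0%, without overlap, and the share of Nr4a2 was higher in all 3 IL-10 libraries.

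One control library moved with several of these results. W/O IL-10 replicate 1 was the lowest of the 3 controls for 8 of the 10 members, all but Nr4a1 and Tox, while it was the lowest for 38.6% of all tested genes. Of the dendritic cell markers, it was the highest control for Ccl22, Ccl17 and Fscn1 and the lowest for H2-Aa, H2-Ab1, Cd74, Itgax and Xcr1. Ccl22, a chemokine of mature dendritic cells, was at 20.97 CPM there, beside 9.50 and 5.89 CPM in the other controls and 3.79, 1.77 and 0.263 CPM W/ IL-10. Over the dendritic cell list, of which 11 of 12 genes were in the table, the summed level was 220, 353 and 259 CPM in W/O IL-10 replicates 1, 2 and 3. It was 180 to 274 CPM W/ IL-10. Cd74, H2-Ab1 and H2-Aa alone were at 160, 76.5 and 72.8 CPM in W/O IL-10 replicate 2, so the sum mainly follows these genes. Clec9a was at or near 0 in every library, and Itgax, which T cells can express too, was higher W/ IL-10. The 6 B cell markers summed to 63.3, 157 and 107 CPM in W/O IL-10 replicates 1, 2 and 3, the same order as the dendritic cell sum. They summed to 61.2 to 109 CPM W/ IL-10, and all 6 had negative differences that did not pass. The 6 macrophage markers summed to 12.7, 7.27 and 6.37 CPM in W/O IL-10 replicates 1, 2 and 3, so highest in replicate 1, and to 7.05 to 7.52 CPM W/ IL-10. The part of such cells in the values of the members and of the other named genes, Rxra among them, was not tested. In bulk samples fewer cells of a type and less RNA per cell cannot be told apart.

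Among the relatives and cofactors of these factors, Nab1 and Rxra passed both criteria. Nab1, a corepressor that binds EGR proteins, was at 62.5, 88.6 and 91.6 CPM W/O IL-10 and at 130, 123 and 130 CPM W/ IL-10. All IL-10 libraries lay above the controls, of which replicate 1 was again the lowest, and Nab1 rose 1.58-fold (adjusted p = 0.0447 in edgeR). It missed the adjusted p narrowly with the replicate number as a block (0.0503). Without any 1 library other than W/O IL-10 replicate 1 its adjusted p was 0.0509 to 0.205. Without W/O IL-10 replicate 1 the adjusted p was 0.00321 at a log2 fold change of 0.49, under 1.5-fold. Nab2, its close relative and an EGR target, was at 38.0, 32.1 and 35.5 CPM in the controls and at 30.0, 34.8 and 35.4 CPM W/ IL-10 (adjusted p = 0.781), so the groups overlapped. An antisense gene, Gm16229, covers 35.7% of the exon bases of Nab2, and whether reads were counted by strand is not stated.

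Rxra, the retinoid receptor that forms heterodimers with Nr4a1 and Nr4a2, was at 26.6, 18.2 and 15.4 CPM W/O IL-10 and at 10.2, 9.31 and 8.05 CPM W/ IL-10. Every IL-10 library was lower, and Rxra fell by 1.13 on the log2 scale (SE 0.20, adjusted p = 0.0298 in edgeR). The fall was 0.89 without W/O IL-10 replicate 1, the control with the highest Rxra (adjusted p = 0.00477), and the adjusted p rose to between 0.0684 and 0.184 without W/O IL-10 replicate 2 or any 1 IL-10 library. For Rxrb it was -0.22 on the log2 scale (adjusted p = 0.301). Egr4, at 1.28 to 1.71 CPM, had a difference of 0.21 (adjusted p = 0.762), and Tox4, of which 13.4% of the exon bases lie under Mettl3 on the other strand, one of -0.02 (adjusted p = 0.925). Of the 9 genes of this list 7 were tested, and 1 rose and 1 fell at the adjusted p, beside 1.21% and 0.979% of all tested genes. The median log2 fold change of the list was -0.05.

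The list of the calcineurin-NFAT pathway, which holds regulators of NFAT and also Nfatc3, Nfat5 and Rcan1, gave no call. Of its 31 genes 29 were tested in edgeR and 0 passed the adjusted p, beside 2.19% of all tested genes. At an unadjusted p under 0.05 there were 4, a share near that of all tested genes (14.7%). The median log2 fold change was 0.01. The catalytic subunit Ppp3ca was at 133, 179 and 203 CPM W/O IL-10 and at 165, 194 and 192 CPM W/ IL-10 (adjusted p = 0.801). Ppp3cb, the other main catalytic subunit, was at 59.1 CPM in W/O IL-10 replicate 1 and at 121 to 130 CPM in the other 5 libraries, and the regulatory subunit Ppp3r1 at 49.5 CPM there and at 87.0 to 99.2 CPM elsewhere. Their log2 fold changes of 0.31 and 0.32 (adjusted p = 0.593 and 0.517) thus rested on that library, without which they were 0.02 and 0.07. In the annotation 14.3% of the exon bases of Ppp3r1 are also part of Wdr92 on the same strand. Rcan1, a calcineurin inhibitor and a classical NFAT target, was at 12.3, 15.5 and 12.3 CPM and at 10.8, 14.1 and 12.6 CPM (adjusted p = 0.822). Nfatc3 and Nfat5 had log2 fold changes of 0.03 and 0.05 (adjusted p = 0.922 and 0.930), and Homer2, which competes with calcineurin for NFAT, one of -0.52 on 20 to 60 counts (adjusted p = 0.547).

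Among 17 T cell targets of NFAT, EGR and NR4A factors, 1 rose and 0 fell at the adjusted p in edgeR. Over all tested genes 1.21% rose and 0.979% fell. The median log2 fold change of the list was -0.04. Ifng, the effector cytokine, was at 10.6, 9.96 and 13.1 CPM W/O IL-10 and at 27.8, 23.9 and 25.4 CPM W/ IL-10, and it rose 2.29-fold (adjusted p = 0.00383), with no overlap of the groups. In the annotation 25.9% of its exon bases are also part of Gm49751 on the same strand. Cd40lg, a helper ligand under NFAT control, was at 6.69, 6.86 and 4.26 CPM W/O IL-10 and at 3.64, 3.86 and 3.11 CPM W/ IL-10. Its groups did not overlap, but it did not pass (log2 fold change -0.75, adjusted p = 0.149). Csf2, the growth factor GM-CSF, had only 15 to 58 counts (log2 fold change -0.72, adjusted p = 0.446).

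Of 19 exhaustion-linked receptors and factors, with which Tox is usually read, 5 rose and 3 fell at the adjusted p. Over all tested genes 1.21% rose and 0.979% fell. The median log2 fold change was 0.18 over the list and 0.01 over all tested genes. The list was chosen with earlier results of these data known. The inhibitory receptors Ctla4 (from 75.1 ± 18.7 to 178 ± 5.02 CPM), Lag3 (from 187 ± 5.40 to 407 ± 30.3 CPM), Cd160 (from 40.2 ± 2.57 to 74.2 ± 1.91 CPM) and Pdcd1 (from 57.5 ± 4.42 to 87.5 ± 2.28 CPM; SD, n = 3 each) rose 2.37-, 2.17-, 1.85- and 1.52-fold. Batf, an AP-1 family factor that partners with IRF4, rose 1.39-fold (adjusted p = 0.0390), a call lost with the replicate block (0.0508) and without any 1 library other than W/O IL-10 replicate 1 (0.116 to 0.146). Eomes, the T-box factor, fell from 517 ± 20.5 to 364 ± 16.7 CPM (log2 fold change -0.51, adjusted p = 0.0176). Maf (log2 fold change -0.52, adjusted p = 0.0272) and Id3, an inhibitor of E proteins (-1.30, adjusted p = 0.0322), fell too. With 1 library left out, the adjusted p reached 0.0704 for Ctla4 and Pdcd1 (under 0.05 in 4 of 6 fits each), 0.123 for Eomes and 0.160 for Maf (2 of 6 each) and 0.132 for Id3 (1 of 6), while Lag3 and Cd160 passed in all 6. The values of Nfatc1, Nfatc2 and Tox in the same libraries overlapped between the groups.

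Of 24 early response genes, the class to which the EGR and NR4A members belong, 1 rose and 0 fell at the adjusted p. Over all tested genes 1.21% rose and 0.979% fell. The median log2 fold change of the list was 0.02. Junb, an AP-1 subunit, went from 179, 192 and 185 CPM to 243, 316 and 294 CPM and rose 1.53-fold (adjusted p = 0.0236). Its call was lost without W/O IL-10 replicate 2 or 3 or W/ IL-10 replicate 2 or 3 (adjusted p = 0.0689 to 0.136). Fos, its partner, was at 3.26, 5.12 and 5.12 CPM and at 6.36, 9.58 and 8.88 CPM. Every IL-10 library was above every control, but Fos did not pass in edgeR (log2 fold change 0.88, adjusted p = 0.102). It passed with DESeq2 (0.0227), with the replicate block (0.0434), without the filter on low counts (0.00104) and with the GC and length correction plus block (0.00590). Zfp36, which destabilises mRNAs with AU-rich elements, also missed in edgeR (0.35 on the log2 scale, adjusted p = 0.0671) but passed with DESeq2 (0.0282), without the filter (0.0154) and with the GC and length correction alone (0.0137) or with the block (0.00410).

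**Figure D4:**
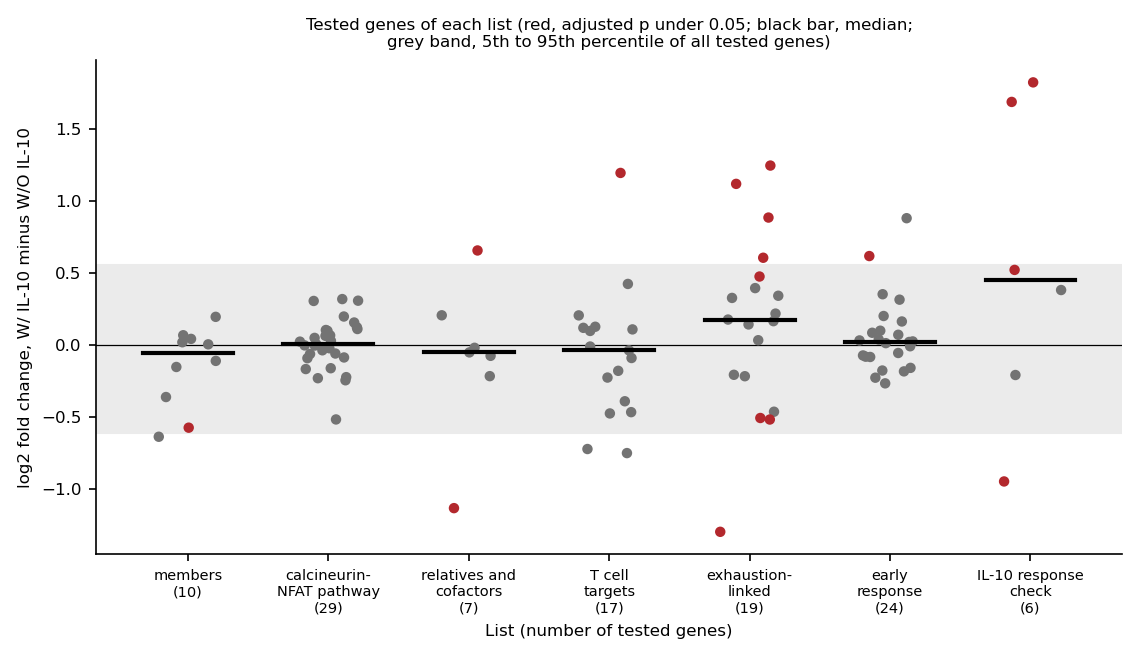
Log2 fold change, W/ minus W/O IL-10 (y axis), of every tested gene of the members and of the 6 lists (x axis, with the number of tested genes); red marks an adjusted p under 0.05 in edgeR, the black bar the median of the list, and the grey band the 5th to 95th percentile of all tested genes (-0.61 to 0.56). The members' median of -0.05 and 9 of 10 members lay inside the band, with Tox2 (-0.64) below it.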

How the data were processed

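RNA of cDNT (6 libraries, 3 per group) was sequenced on an Illumina HiSeq. The paper's methods name a NEBNext kit, TopHat and Cufflinks with UCSC annotation, whereas the labels name a TruSeq kit and the submitters' processing notes name HISAT2, HTSeq and GRCm38. Versions and strand are not given in the sources used here. The design text speaks of duplicates. The authors deposited 1 table of whole-number counts per Ensembl gene, not normalized.

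The quasi-likelihood test of edgeR 4.0.16 (run in R 4.3.3) was applied to these deposited counts with TMM factors of 0.953 to 1.03. It covered 14916 genes that reached 10 counts in 3 or more libraries, with Benjamini-Hochberg adjustment over all of them. A call needed a fold change of at least 1.5 and an adjusted p under 0.05, thresholds the paper states. CPM values use TMM-scaled library sizes. Intervals are 95% intervals of the fit, and the floor of 3 counts covers counting error only.

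The members, the lists and the named genes (all members, every gene of a list with an adjusted p under 0.05, the 3 largest log2 fold changes of each list, and Nfatc3, Ppp3ca, Rcan1, Nab1, Nab2, Egr4, Tox4 and Nfat5) were chosen with earlier results of these data known. Ccl22, Ccl17, Fscn1, H2-Aa, H2-Ab1, Cd74, Xcr1, Itgax, Clec9a, Stat3 and Il4ra lie outside this rule and were named after their values had been seen. Positions, exon lengths and overlaps come from GENCODE M21 (GRCm38), which held 29332 of the 29393 identifiers. Per-length levels divide CPM by kilobases of annotated exon. Promoters are from RefSeq (GRCm38.p6), where 6 of the 10 members had a window that was used. The steps were tested on simulated data. Single values of some list genes are left out here.

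Alternatives were DESeq2 1.42.0, upper-quartile factors, limma-voom (limma 3.58.1), no filter on low counts, a minimum of 10 counts in every library, the replicate number as a block, a correction for GC content and length (splines with 5 degrees of freedom), and each library left out in turn. Tables, permutation tests and plots used pandas 2.3.3, scipy 1.17.1 and matplotlib 3.10.9 under Python 3.11.15.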

Additional observations from a re-analysis of the deposited data

How the results depend on the processing

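The count of members that passed both criteria was 0 and became 1, Nr4a1, with upper-quartile factors, with at least 10 counts in every library, and when any fold change was accepted, since its fold change lay close to 1.5. It was 0 to 1 with 1 library left out. The count at the adjusted p alone was 1. Its other settings were added after seeing the data, and it became 2 without the filter on low counts (Nr4a1 and Nr4a3) and with the GC and length correction together with the replicate block (Nr4a1 and Egr1). It was 0 to 2 with 1 library left out. Only the leave-one-out fits, which have fewer libraries, lost the call of Nr4a1.

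Same-numbered libraries deviated from their group means with correlations of 0.0524, -0.0573 and 0.114, beside -0.106 to 0.0409 for libraries of unlike number. With 3 libraries per group these values cannot settle whether the shared numbers pair the samples, which the labels do not say. With the replicate block 0 members passed both criteria and 1 passed the adjusted p, and over all genes 283 passed the adjusted p, beside 327 without the block. Among the other named genes the block ended the calls of Nab1 and Batf and gave one to Fos, and it changed no other call. Counts over all genes that passed the adjusted p were 682 with DESeq2, 1239 without the filter, 579 with the GC and length correction, 953 with that correction and the block, and 35 to 525 with 1 library left out. Those passing both criteria were 217, and 346, 639, 280, 354 and 35 to 254 under the same alternatives.

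Of 140 alternative values of the members 13 changed sign, in each case around 0. The log2 fold change of Nfatc1 became -0.000932 with DESeq2, -0.0125 with upper-quartile factors, -0.00173 without the filter and -0.00710 with 10 counts in every library. With 1 library left out it was -0.0360 to 0.0259 for Nfatc1, -0.0536 to 0.119 for Egr3, -0.0262 to 0.0546 for Nfatc2 and -0.0623 to 0.0940 for Tox. Tox was -0.0106 with the GC and length correction and -0.0141 with the replicate block added. Of 434 values of the other named genes 14 changed sign. Nfatc3, Nfat5 and Nab2 became -0.0320, -0.0246 and 0.0332 with the GC and length correction, and -0.0340, -0.0415 and 0.0341 with the block added. Leaving out 1 library gave -0.0650 to 0.224 for Ppp3ca, -0.0298 to 0.108 for Nfatc3, -0.184 to 0.229 for Nfat5, -0.188 to 0.0218 for Rcan1 and -0.0467 to 0.00773 for Tox4. The causes were not tested. Depth limits Tox2 most, with 14 to 51 counts.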
